A study of Mus musculus with 36 samples.

Results

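Phase II conjugation enzymes join a polar group to drugs, steroids, bile pigments and reactive electrophiles, and the liver carries out much of this work. The enzymes described here were all genes whose symbol begins with Gsta, Gstk, Gstm, Gsto, Gstp, Gstt, Gstz, Mgst or Sult followed by a digit, or with Ugt followed by 1, 2 or 3, and that were read by at least 1 array probe set naming that gene alone. They number 63 of 23152 measured genes. Membership went by name alone, but these gene families were chosen with earlier results of these data known. There are 24 glutathione transferases (21 soluble and 3 membrane-bound), 18 UDP-glycosyltransferases and 21 sulfotransferases. The liver RNA came from 4 groups of mice lacking dermatopontin (Dpt), a small matrix protein that binds collagen and decorin, or of their wild-type (WT) littermates. Dpt-null (KO) mice after CCl4 gave 9 libraries, WT mice after CCl4 gave 9, KO mice after olive oil gave 10 and WT mice after olive oil gave 8, with 1 array for each library. All were labelled female C57BL/6 mice aged 10 to 12 weeks. Injections of CCl4 or oil (0.1 ml per kg, subcutaneous) were given 3 times weekly for 8 weeks. CCl4 was a 2% solution in week 1, 4% in week 2, 5% in week 3, 6% in week 4 and 8% in weeks 5 to 8, and livers were taken 24 h after the last injection. The labels call the KO mice Dpt null and name no driver that limits the deletion to a cell type. The labels number the samples without saying that each is 1 animal, so p-values measure the spread between these samples.

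Glutathione transferases (GSTs) link the tripeptide glutathione to electrophiles. UDP-glucuronosyltransferases (UGTs) transfer glucuronic acid from UDP-glucuronate to phenols, bilirubin, steroids and bile acids. Cytosolic sulfotransferases (SULTs) transfer sulfate from PAPS to phenols, amines, steroids and bile acids. Hepatocytes hold most of these enzymes in the liver, and pericentral hepatocytes, which activate CCl4 through Cyp2e1, are the cells that CCl4 kills. Several members are known to differ between male and female mouse liver.

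Some libraries stood apart from their labels. The values are deposited log2 signals, on which 1 unit is a doubling. Of the 18 oil libraries 6 expressed Y-linked genes above Xist (KO oil 1, 3 and 4 and WT oil 1, 2 and 3), although all are labelled female, with Y-linked scores up to 6.40 in KO oil and 6.33 in WT oil. No CCl4 library did, with scores up to 2.80 in KO CCl4 and 2.72 in WT CCl4. Dpt went against the label in 2 libraries: the library labelled KO oil 10 read 7.40, against a KO oil median of 3.60, and the library labelled WT CCl4 1 read 3.18, against a WT CCl4 median of 8.31. Periportal hepatocyte genes were low in KO CCl4 5 (5.86) and WT CCl4 3 (5.95), against medians of 8.49 and 8.63 in their groups. These 10 libraries were left out together as an alternative, which leaves 8 KO CCl4, 7 WT CCl4, 6 KO oil and 5 WT oil libraries. Markers of pancreas, skeletal muscle or adipocytes were raised in 7 libraries (KO CCl4 5, WT CCl4 3, 4, 5, 8 and 9 and KO oil 10). The hepatocyte score (the mean over 8 defining markers) lay at 7.97, 10.71 and 10.81 in KO CCl4 (lowest, median and highest), 8.16, 10.77 and 10.86 in WT CCl4, 10.62, 10.95 and 11.08 in KO oil and 10.96, 11.02 and 11.15 in WT oil. The highest scores of other tissues were 11.49 for pancreas in WT CCl4 4 (group median 3.99), 10.00 for skeletal muscle in WT CCl4 3 (3.65) and 8.03 for adipocytes in KO CCl4 5 (3.90). WT CCl4 3 and KO CCl4 5 also had the lowest hepatocyte scores of their groups.

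After CCl4 the conjugating enzymes were mostly lower, in both genotypes. In KO livers, set against oil (9 against 10 libraries), 26 of the 63 members fell and 1 rose at an adjusted p under 0.05 (limma, adjusted over all 23152 genes; called below), where 9.89% of all genes fell and 13.4% rose. In WT livers (9 against 8 libraries) 22 members fell and 1 rose, where 11.3% of all genes fell and 13.2% rose. The median log2 difference over the 63 members was -0.61 in KO and -0.68 in WT, beside -0.04 over all genes in each. The 21 members that fell in both genotypes make up 80.8% of those that fell in KO and 95.5% of those that fell in WT, and the 1 that rose, Gsta1, rose in both. The overlap of calls over all genes was not counted, so this overlap is not shown to be particular to the members. The KO and WT differences correlated at 0.946 over the members and at 0.863 over all genes. No member was left out for a low signal: 25 members averaged under 5, of which 8 were called in KO and 7 in WT. In bulk liver RNA, fewer cells of a type and less RNA per cell cannot be told apart.

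The 3 families differed in how evenly they moved. All 18 UGTs had a negative CCl4 difference in KO and in WT, with a median of -1.22 in KO and -1.07 in WT, and 11 were called in KO and 9 in WT. The number negative was 17 of 18 in KO when the median over probe sets was taken, and 17 of 18 in WT without the 10 libraries and without the 7 with markers of other tissues. Of the 24 GSTs 7 fell and 1 rose in each genotype, with a median of -0.25 in KO and -0.14 in WT. Of the 21 SULTs 8 fell in KO and 6 in WT, with a median of -0.44 in KO and -0.24 in WT. No UGT and no SULT rose with all libraries. The differences between families were not tested.

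**Figure D1:**
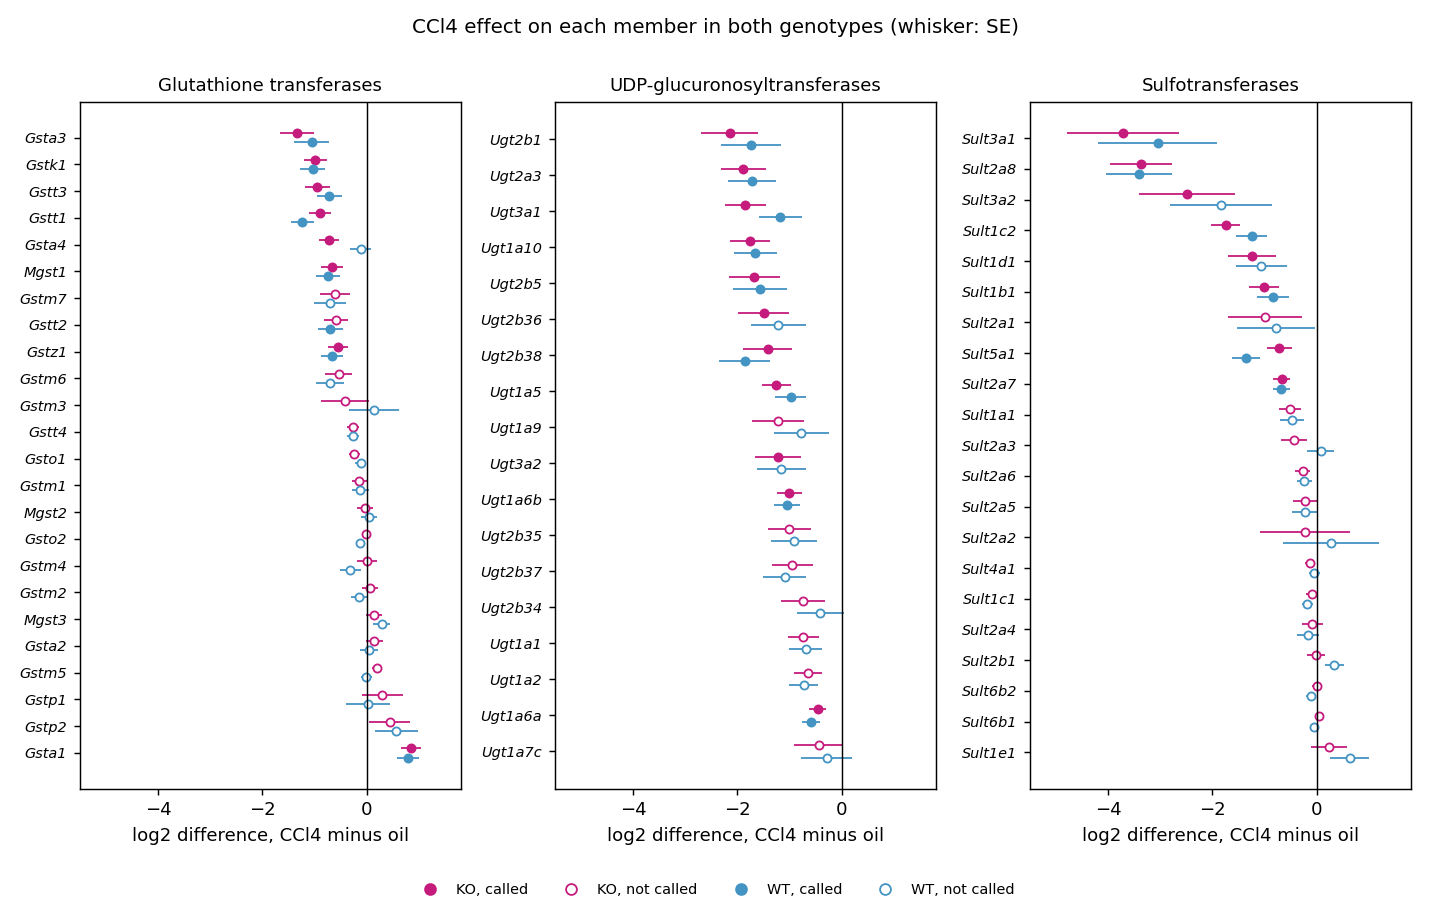
Log2 difference, CCl4 minus oil, of each of the 63 members by family, with KO (9 against 10 libraries) drawn above WT (9 against 8) in each row, whiskers for the standard error and filled points for members called at an adjusted p under 0.05. All 18 UGT points lie left of 0 in both genotypes, and the lowest points are the sulfotransferases Sult3a1 and Sult2a8.

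Among the alpha class GSTs, Gsta3, which detoxifies aflatoxin epoxide in mice, was lower after CCl4. In KO livers its log2 signal was 6.82, 8.80 and 9.22 after CCl4 (lowest, median and highest, as in all such triples below), against 9.05, 9.99 and 10.44 after oil. In WT livers it was 5.75, 9.10 and 9.82 after CCl4, against 9.70, 9.91 and 10.04 after oil. The 18 CCl4 libraries all lay below the mean of their genotype's oil group, though the ranges overlapped, and KO CCl4 5 and WT CCl4 3 lay far below the rest. Gsta3 fell by 1.34 ± 0.32 in KO (adjusted p = 0.0022) and by 1.06 ± 0.34 in WT (adjusted p = 0.0227). All 8 of its probe sets were negative in both genotypes.

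Gsta1 was the member that rose. Its level came from 1 probe set and was 5.91, 6.52 and 7.19 in KO livers after CCl4, against 5.15, 5.63 and 6.58 after oil. WT livers had 5.67, 6.49 and 7.35 after CCl4, against 5.33, 5.73 and 6.37 after oil. The groups overlapped, with 9 of 9 KO and 8 of 9 WT libraries after CCl4 above their oil mean. It rose by 0.85 ± 0.19 in KO (adjusted p = 0.00126) and by 0.79 ± 0.20 in WT (adjusted p = 0.00477). Probe sets that Gsta1 shares with near-identical genes, which the naming rule leaves out, did not move alike. The set shared by Gm10639, Gm3776 and Gsta1 was at 2.45, 6.99 and 7.73 in KO after CCl4, against 1.94, 2.60 and 7.36 after oil, and at 3.92, 6.88 and 8.04 in WT after CCl4, against 1.97, 2.74 and 3.90 after oil. It rose by 3.10 ± 0.65 in KO (adjusted p = 0.000483) and by 3.62 ± 0.68 in WT (adjusted p = 0.000265), and the probes cannot say which of these genes carried the rise. The probe set shared by Gm3776, Gsta1 and Gsta2 rose by 1.90 ± 0.55 in KO and 3.00 ± 0.58 in WT (adjusted p = 0.0104 and 0.000371). That of Gm3776 and Gsta1 rose by 1.68 in KO and 2.26 in WT, called in both. The 6 probe sets shared by Gm10639, Gm3776, Gsta1 and Gsta2 gave 0.956 in KO, uncalled (adjusted p = 0.0962), and 1.435 in WT (adjusted p = 0.017). The set of Gm10639, Gsta1 and Gsta2, near the bottom of the scale, was at 0.12 in KO and -0.01 in WT, uncalled. The 2 probe sets for Gsta2 alone were near the bottom of the scale, with differences of 0.14 ± 0.16 in KO and 0.04 ± 0.17 in WT, neither called.

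Gsta4, which conjugates the lipid peroxidation product 4-hydroxynonenal, was called in KO and not in WT. Its KO levels were 6.31, 6.98 and 7.34 after CCl4, against 6.99, 7.65 and 8.19 after oil. WT levels were 6.80, 7.45 and 8.81 after CCl4, against 7.22, 7.65 and 8.10 after oil. The groups overlapped in both genotypes, and the highest WT CCl4 value, 8.81, was in WT CCl4 3. It fell by 0.72 ± 0.19 in KO (adjusted p = 0.0045), with 9 of 9 libraries below the oil mean, and its difference in WT was -0.12 ± 0.20 (adjusted p = 0.694). The 2 responses differed by -0.60 ± 0.27 (KO minus WT), which was not called (adjusted p = 0.853).

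Gstk1, the transferase of mitochondria and peroxisomes, and the theta class enzymes fell. Gstk1 was at 6.51, 8.83 and 9.12 in KO livers after CCl4, against 8.77, 9.72 and 9.83 after oil. In WT livers it was at 7.89, 8.83 and 9.55 after CCl4, against 9.69, 9.77 and 9.96 after oil. The WT groups did not overlap, and it was 1 of 3 members of which that was true in WT, along with Ugt2b36 and Sult2a8 (0.851% of all genes lay wholly below). No member lay wholly above in WT, where 2.79% of all genes did. No member's KO groups were apart, where 0.112% of all genes lay wholly below and 0.203% wholly above. Gstk1 fell by 0.99 ± 0.22 in KO (adjusted p = 0.00122) and 1.03 ± 0.24 in WT (adjusted p = 0.00178).

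Gstt1, a theta class enzyme that acts on small halogenated molecules, had levels of 6.71, 7.34 and 7.64 in KO livers after CCl4, against 6.99, 8.22 and 8.48 after oil. WT livers had 5.64, 7.19 and 8.36 after CCl4, against 7.82, 8.57 and 8.72 after oil. The ranges overlapped through the library labelled KO oil 10 (6.99) and the library labelled WT CCl4 1 (8.36), and every CCl4 library lay below its oil mean. Gstt1 fell by 0.90 ± 0.21 in KO (adjusted p = 0.00163) and by 1.24 ± 0.22 in WT (adjusted p = 0.000153), the smallest adjusted p of any GST in WT. Its class neighbour Gstt3 was at 5.20, 5.43 and 6.01 in KO after CCl4, against 5.73, 6.72 and 7.06 after oil, and at 4.49, 5.49 and 6.74 in WT after CCl4, against 5.22, 6.64 and 6.95 after oil. Both genotypes overlapped. The lowest oil values were those of the 6 libraries with Y-linked expression (5.22 to 6.18) and of the library labelled KO oil 10 (5.83). The other oil libraries lay at 6.64 to 7.06, and the highest WT CCl4 value was that of the library labelled WT CCl4 1 (6.74). Gstt3 fell by 0.94 ± 0.24 in KO (adjusted p = 0.00288) and 0.71 ± 0.25 in WT (adjusted p = 0.0336). Gstt2 fell by 0.70 ± 0.24 in WT (adjusted p = 0.0322) and was at -0.59 ± 0.23 in KO (adjusted p = 0.0544). The WT calls of Gstt2 and Gstt3 were lost on leaving out any 1 of 6 and of 8 libraries, with differences of -0.80 to -0.49 and -0.86 to -0.58 over all 36 such fits. In WT Gstt3 was at -1.22 ± 0.13 without the 10 libraries. Gstt4, with a mean under 3.10 in every group, was not called.

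Gstz1, which isomerises maleylacetoacetate in tyrosine breakdown, fell by 0.55 ± 0.20 in KO and 0.66 ± 0.21 in WT (adjusted p = 0.0374 and 0.0181). The KO call was lost without any 1 of 7 libraries, with differences of -0.61 to -0.43 over all such fits. Mgst1, a membrane enzyme of the endoplasmic reticulum and outer mitochondrial membrane, fell by 0.67 ± 0.21 in KO and 0.74 ± 0.22 in WT (adjusted p = 0.0199 and 0.015). All 13 of its probe sets were negative in both genotypes, and without the 10 libraries it was at -0.39 ± 0.10 in WT. Mgst2 and Mgst3, which can make the leukotriene LTC4, were not called, with differences of -0.03 and 0.14 in KO and 0.05 and 0.29 in WT.

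None of the 7 mu class genes (Gstm1 to Gstm7) or the 2 omega class genes (Gsto1 and Gsto2) was called in either genotype, by limma with all libraries, though Gstm6 and Gstm7 in both and Gsto1 in KO had an unadjusted p under 0.05. Gstm1, a major mu class enzyme of mouse liver, was at 7.68, 9.00 and 9.18 in KO after CCl4, against 8.71, 8.95 and 9.23 after oil, and at 7.87, 8.83 and 9.34 in WT after CCl4, against 8.71, 8.95 and 9.17 after oil. The CCl4 range reached below the oil range through KO CCl4 3 and 5 in KO and through WT CCl4 3 in WT, and the differences were -0.14 ± 0.15 in KO and -0.12 ± 0.16 in WT. Gsto1, which also reduces dehydroascorbate, was at 6.85, 7.87 and 8.13 in KO after CCl4, against 7.72, 8.09 and 8.21 after oil, and at 7.65, 8.06 and 8.21 in WT after CCl4, against 7.78, 8.16 and 8.29 after oil. Its differences were -0.24 ± 0.11 in KO and -0.12 ± 0.11 in WT. The other mu class differences ran from -0.61 (Gstm7) to 0.20 (Gstm5) in KO, and from -0.71 (Gstm6) to 0.14 (Gstm3) in WT. Gsto2, at -0.01 and -0.12, was low on the scale. Gstm6 was called in WT in 4 and Gstm7 in 2 of the 36 fits that left out 1 library.

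Gstp1, of the pi class and known to be higher in male than in female mouse liver, spread widely within the oil groups. It was at 9.18, 11.06 and 11.42 in KO livers after CCl4, against 8.85, 10.39 and 12.20 after oil. WT livers had 9.80, 11.08 and 11.37 after CCl4, against 9.72, 10.24 and 12.09 after oil. The 6 oil libraries with Y-linked expression held 11.85 to 12.20 and the other 12 oil libraries 8.85 to 11.18, with no overlap. With all libraries the CCl4 difference was 0.30 ± 0.39 in KO and 0.02 ± 0.41 in WT, neither called. Without the 10 libraries it was 1.30 ± 0.17 in KO (adjusted p = 8.76e-07) and 1.06 ± 0.19 in WT (adjusted p = 9.25e-05). The close copy Gstp2 gave 0.44 ± 0.39 in KO and 0.57 ± 0.41 in WT with all libraries, and 1.22 ± 0.24 and 1.43 ± 0.26 without the 10 (adjusted p = 0.000249 and 0.000143). Both pi class genes were thus called higher after CCl4 in both genotypes without the 10 libraries and in neither genotype with them.

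The 8 Ugt1a genes measured share their last exons and differ in the first, each with a promoter of its own on chromosome 1. Probe sets for a single Ugt1a gene number 1 to 3 a gene, so these levels rest on few probes. Ugt1a10 was at 2.94, 3.83 and 4.26 in KO livers after CCl4, against 3.66, 6.00 and 6.82 after oil. WT livers had 2.69, 3.99 and 5.80 after CCl4, against 4.48, 5.79 and 6.47 after oil. The ranges overlapped. The library labelled KO oil 10 (3.66) and the libraries with Y-linked expression (4.20 to 5.54) held the low end of the oil ranges, where the other oil libraries lay at 5.53 to 6.82, and the highest CCl4 value was that of the library labelled WT CCl4 1 (5.80). Ugt1a10 fell by 1.75 ± 0.38 in KO (adjusted p = 0.000838) and 1.66 ± 0.41 in WT (adjusted p = 0.00325).

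Ugt1a5 had 5.17, 6.27 and 7.06 in KO after CCl4, against 5.80, 7.65 and 8.23 after oil, and 5.46, 6.37 and 7.66 in WT after CCl4, against 6.46, 7.70 and 8.22 after oil. Each CCl4 median lay below every oil library of its genotype except the library labelled KO oil 10, and the ranges overlapped. Ugt1a5 fell by 1.25 ± 0.28 in KO (adjusted p = 0.000943) and 0.98 ± 0.29 in WT (adjusted p = 0.0141). Ugt1a6b, a copy of the phenol-conjugating Ugt1a6a, had 5.28, 6.46 and 7.20 in KO after CCl4, against 6.58, 7.33 and 8.15 after oil, and 5.17, 6.39 and 7.17 in WT after CCl4, against 6.87, 7.50 and 7.90 after oil. All 18 CCl4 libraries lay below their oil means. Ugt1a6b fell by 1.00 ± 0.24 in KO (adjusted p = 0.00171) and 1.04 ± 0.25 in WT (adjusted p = 0.0026). Ugt1a6a fell by 0.46 ± 0.16 in KO and 0.59 ± 0.17 in WT (adjusted p = 0.0373 and 0.0129), but without the 10 libraries it was at -0.31 and -0.40 and was called in neither (adjusted p = 0.18 and 0.108). It was the only member to lose its call that way, and its KO call was also lost in 10 of the 36 fits that left out 1 library (-0.56 to -0.40 over all such fits).

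Ugt1a1, the bilirubin-conjugating enzyme, was not called with all libraries. It was at 5.12, 7.59 and 8.17 in KO after CCl4, against 7.66, 7.98 and 8.69 after oil, and at 5.58, 7.79 and 8.38 in WT after CCl4, against 7.49, 8.23 and 8.86 after oil. The low ends are KO CCl4 5 and WT CCl4 3. KO CCl4 1, 2, 3 and 8 (6.95 to 7.59) and WT CCl4 4 and 6 (7.14 and 7.42) also lay below every oil library of their genotype. The remaining CCl4 libraries overlapped the oil ones. The difference was -0.74 ± 0.30 in KO and -0.69 ± 0.31 in WT, and without the 10 libraries -0.64 ± 0.18 and -0.77 ± 0.19, called in both (adjusted p = 0.00675 and 0.00345). Ugt1a9, which acts on bulky phenols, was at 3.22, 7.84 and 8.70 in KO after CCl4, against 7.28, 8.76 and 9.42 after oil, and at 4.37, 7.84 and 9.20 in WT after CCl4, against 7.90, 8.48 and 9.08 after oil. Its differences of -1.23 ± 0.50 in KO and -0.78 ± 0.52 in WT were not called with all libraries, and those without the 10, -1.01 ± 0.21 and -0.72 ± 0.23, were. Ugt1a2 was at -0.65 ± 0.26 in KO and -0.73 ± 0.28 in WT, uncalled (adjusted p = 0.0729 and 0.0518). Leaving out 1 library gave a call in 2 of 36 fits in KO and 9 in WT for Ugt1a2, in 2 and 1 for Ugt1a1, and in 3 and 0 for Ugt1a9. A group of 5 probe sets in the exons shared by all 8 Ugt1a genes gave -0.50 ± 0.18 in KO (adjusted p = 0.0348) and -0.40 ± 0.18 in WT (adjusted p = 0.108).

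NRF2 is a factor that induces many GSTs in oxidative stress. The core of its element, TGACNNNGC, lay on either strand in 4 of 67 RefSeq promoters (5.97%; GRCm38.p6, 250 bases before to 50 after the start) found for 55 members, and in 12.4% of all 32851 promoters of that length. These shares were not tested against each other. The promoter of Gsta3, printed with its match in capitals, is 1 of the 4, with Gstm5, Gstm7 and Mgst1.
Gsta3 (chr1:21240335-21240634, plus strand): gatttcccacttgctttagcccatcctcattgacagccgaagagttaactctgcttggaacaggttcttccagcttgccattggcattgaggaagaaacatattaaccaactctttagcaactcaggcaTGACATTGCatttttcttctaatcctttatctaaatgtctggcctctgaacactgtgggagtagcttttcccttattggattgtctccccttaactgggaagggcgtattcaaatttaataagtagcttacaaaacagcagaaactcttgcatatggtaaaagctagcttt
Gsta3 and Mgst1 fell in both genotypes, and Gstm5 and Gstm7 were not called. The core of the dioxin receptor element, GCGTG, lay in 12 of the members' 67 promoters (17.9%), which belong to 10 members with Gsta1 and Gstp1 among them, and in 32.4% of all promoters. In Gstm5 the last 5 bases of the TGACNNNGC match are also a reverse-strand GCGTG match. A match is a description of the letters and not of binding.

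The Ugt2 enzymes, which glucuronidate steroids and bile acids, fell in 5 of 8 genes in KO and 4 of 8 in WT. Ugt2b1 was at 4.48, 8.99 and 9.65 in KO livers after CCl4, against 8.80, 10.89 and 11.50 after oil. WT livers had 4.83, 9.48 and 10.80 after CCl4, against 10.43, 10.68 and 11.54 after oil. KO CCl4 5 (4.48) and WT CCl4 3 (4.83) lay far below the next lowest libraries of their groups (8.76 and 9.06), and the ranges overlapped. Ugt2b1 fell by 2.15 ± 0.54 in KO (adjusted p = 0.00329) and 1.74 ± 0.57 in WT (adjusted p = 0.0249). The WT call was lost when WT CCl4 3 alone was left out, at -1.20, and held without all 10 libraries, at -1.06 ± 0.15 (adjusted p = 5.14e-06).

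Ugt2a3 was at 3.75, 7.22 and 7.85 in KO after CCl4, against 7.15, 8.88 and 9.32 after oil, and at 3.64, 7.46 and 8.68 in WT after CCl4, against 8.58, 8.82 and 8.92 after oil. The WT oil libraries lay close together, and of the WT CCl4 libraries only the one labelled WT CCl4 1 (8.68) reached them. Ugt2a3 fell by 1.89 ± 0.44 in KO (adjusted p = 0.00141) and 1.73 ± 0.46 in WT (adjusted p = 0.00624). Ugt2b5 fell by 1.68 ± 0.49 in KO and 1.57 ± 0.52 in WT (adjusted p = 0.0106 and 0.0243), the WT call being lost without WT CCl4 3, at -1.07, and held without the 10, at -0.97 ± 0.17. Ugt2b38 fell by 1.42 ± 0.47 in KO and 1.86 ± 0.49 in WT (adjusted p = 0.0236 and 0.00592). Its KO call was lost without KO oil 1 or without KO oil 3, both with Y-linked expression, and the smallest difference over all such fits was -1.10. Ugt2b38 was still called without the 10 libraries, at -0.85 ± 0.18 in KO and -0.84 ± 0.20 in WT. Ugt2b36 fell by 1.49 ± 0.49 in KO (adjusted p = 0.0238), a call lost without KO CCl4 5, at -0.99. In WT all 9 CCl4 libraries of Ugt2b36 (4.54 to 9.56) lay below all 8 oil libraries (9.78 to 10.21), yet the difference of -1.21 ± 0.52 was not called (adjusted p = 0.0831) unless KO CCl4 5, which enters the shared variance, was left out (adjusted p = 0.0178).

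Ugt2b34 was called in neither genotype with all libraries. It was at 5.84, 9.93 and 10.32 in KO after CCl4, against 9.63, 10.23 and 10.57 after oil, and at 6.12, 10.09 and 10.31 in WT after CCl4, against 9.91, 10.14 and 10.30 after oil. Apart from KO CCl4 5 and WT CCl4 3 the CCl4 libraries reached from 9.48 to 10.32, over much the same span as the oil libraries. Its differences were -0.74 ± 0.43 in KO and -0.41 ± 0.45 in WT, and -0.35 ± 0.10 (adjusted p = 0.0119) and 0.09 ± 0.11 (adjusted p = 0.615) without the 10 libraries. Ugt2b35 and Ugt2b37 were not called with all libraries, at -1.001 and -0.94 in KO and -0.92 and -1.09 in WT. Of the fits that left out 1 library, 1 in each genotype called Ugt2b35, and 3 in KO and 9 in WT called Ugt2b37.

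The Ugt3 enzymes, which in humans use sugars other than glucuronic acid, fell in KO. Ugt3a1 was at 2.81, 5.46 and 6.50 in KO after CCl4, against 4.99, 7.33 and 7.79 after oil, and at 3.46, 6.20 and 7.38 in WT after CCl4, against 6.40, 7.16 and 7.48 after oil. In KO the groups overlapped through the library labelled KO oil 10 alone. In WT they overlapped through WT CCl4 2 (6.83) and the library labelled WT CCl4 1 (7.38). Ugt3a1 fell by 1.84 ± 0.39 in KO (adjusted p = 0.000568) and 1.17 ± 0.41 in WT (adjusted p = 0.0349), where leaving out any 1 of 8 libraries lost the call (-1.36 to -0.87 over all such fits). Ugt3a2 fell by 1.22 ± 0.45 in KO (adjusted p = 0.0422), a call lost without any 1 of 11 libraries (-1.36 to -0.79 over all such fits, with -0.79 when KO CCl4 5 was left out), and was at -1.16 ± 0.47 in WT (adjusted p = 0.068).

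**Figure D2:**
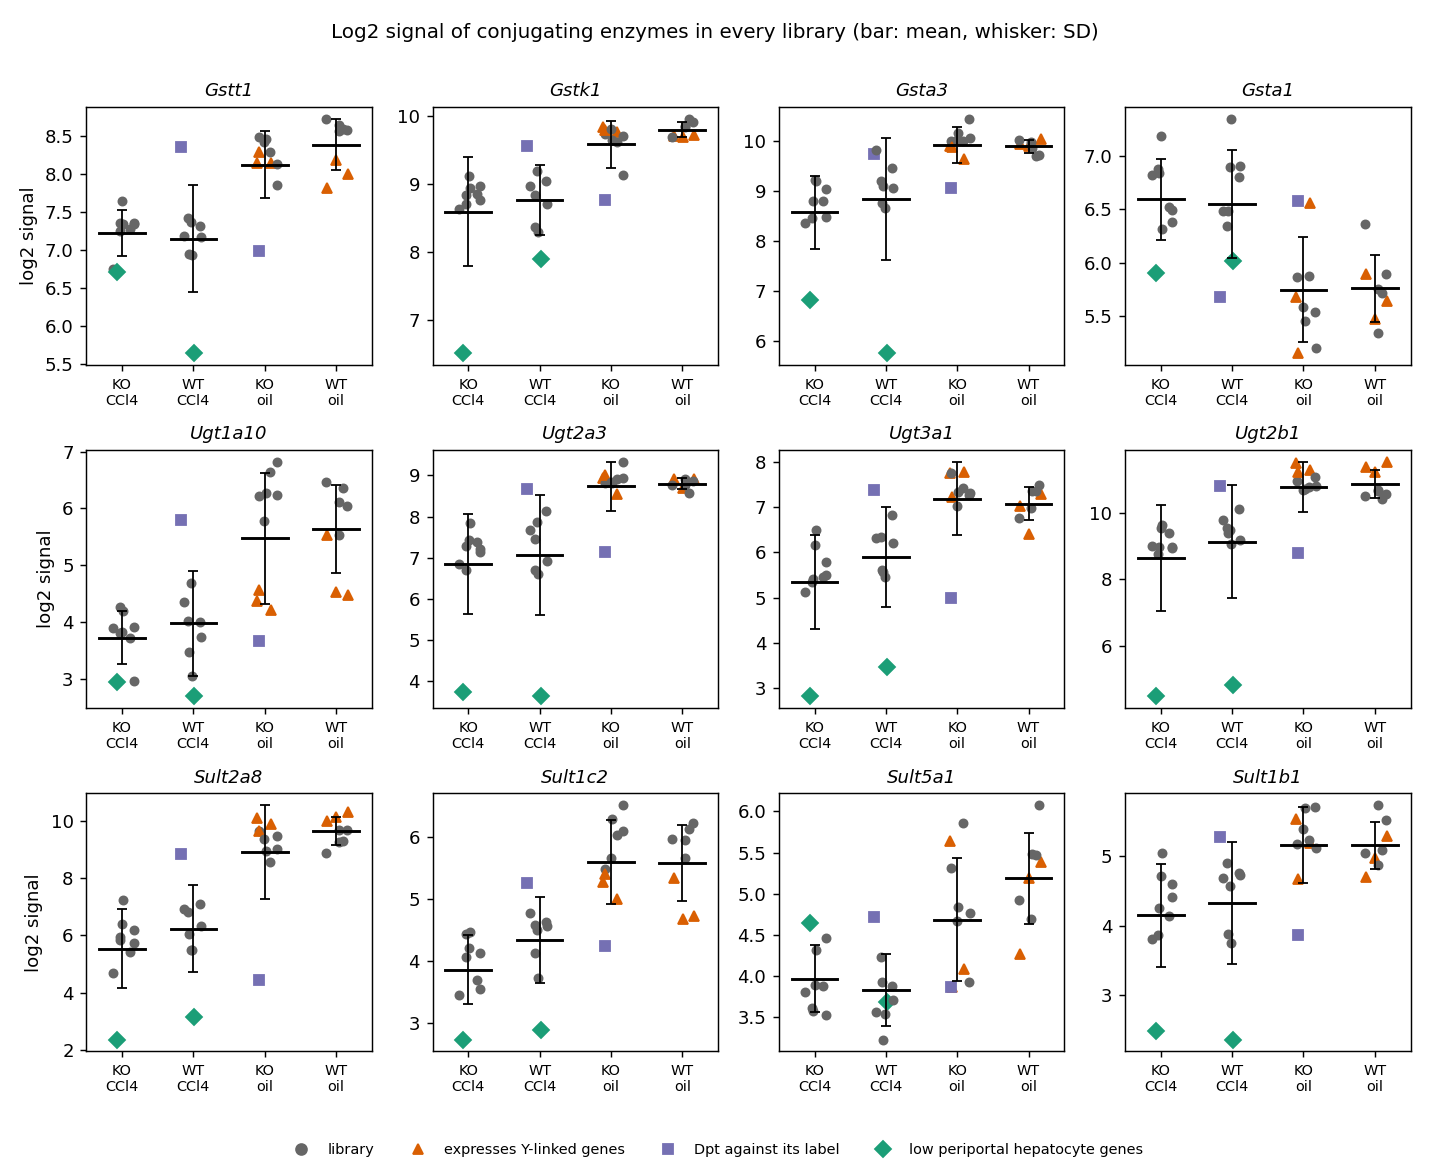
Log2 signal of 4 members of each family in every library, by group, with bars for the mean, whiskers for the SD and symbols for libraries that express Y-linked genes, whose Dpt level goes against the label or that are low in periportal hepatocyte genes (n = 9 KO CCl4, 9 WT CCl4, 10 KO oil and 8 WT oil). Gsta1 alone is higher after CCl4. In Gstt1, Sult2a8, Ugt2a3 and Ugt3a1 the squares (WT CCl4 1 and KO oil 10) sit near the level of the other treatment.

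Among the sulfotransferases, Sult2a8, a mouse hepatic bile acid sulfotransferase, showed a large difference that held in both genotypes. It was at 2.36, 5.84 and 7.23 in KO livers after CCl4, against 4.44, 9.42 and 10.10 after oil. WT livers had 3.16, 6.31 and 8.82 after CCl4, against 8.88, 9.66 and 10.29 after oil. The WT groups did not overlap, and the KO groups did through the library labelled KO oil 10 (4.44), since the next lowest KO oil library read 8.54. Sult2a8 fell by 3.37 ± 0.60 in KO (adjusted p = 6.61e-05) and 3.41 ± 0.63 in WT (adjusted p = 0.000216), and without the 10 libraries the differences were -3.23 ± 0.29 and -3.04 ± 0.31. All 10 of its probe sets were negative in both genotypes.

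Sult1c2 was at 2.73, 4.06 and 4.47 in KO after CCl4, against 4.24, 5.57 and 6.51 after oil, and at 2.88, 4.56 and 5.26 in WT after CCl4, against 4.67, 5.81 and 6.22 after oil. Each CCl4 library was below its oil mean, with overlap at the ends of the ranges. Sult1c2 fell by 1.74 ± 0.28 in KO (adjusted p = 1.79e-05) and 1.25 ± 0.30 in WT (adjusted p = 0.00248). Sult5a1 was at 3.53, 3.88 and 4.65 in KO after CCl4, against 3.87, 4.72 and 5.86 after oil, and at 3.23, 3.71 and 4.72 in WT after CCl4, against 4.27, 5.29 and 6.08 after oil. All 18 CCl4 libraries again lay below their oil means. Sult5a1 fell by 0.71 ± 0.25 in KO (adjusted p = 0.031), a call lost without any 1 of 7 libraries (-0.81 to -0.58 over all such fits), and fell by 1.35 ± 0.26 in WT (adjusted p = 0.000319).

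Sult1b1, which sulfates thyroid hormones, was at 2.49, 4.25 and 5.05 in KO after CCl4, against 3.86, 5.21 and 5.71 after oil, and at 2.36, 4.69 and 5.28 in WT after CCl4, against 4.71, 5.07 and 5.74 after oil. The lowest values were again those of KO CCl4 5 and WT CCl4 3, and the groups overlapped. Sult1b1 fell by 1.01 ± 0.29 in KO (adjusted p = 0.0098) and 0.83 ± 0.31 in WT (adjusted p = 0.0446), where any 1 of 9 libraries decided the call (-0.95 to -0.59 over all such fits). Sult2a7, of the hydroxysteroid subfamily, was at 2.10, 2.40 and 2.88 in KO after CCl4, against 2.39, 3.14 and 3.85 after oil, and at 2.12, 2.46 and 3.06 in WT after CCl4, against 2.58, 3.27 and 3.71 after oil. These levels are low on the scale and the groups overlapped, with 9 of 9 CCl4 libraries below the oil mean in each genotype. Sult2a7 fell by 0.67 ± 0.16 in KO (adjusted p = 0.00162) and 0.68 ± 0.17 in WT (adjusted p = 0.00314). Sult1d1, which sulfates catecholamines in mice, fell by 1.25 ± 0.46 in KO (adjusted p = 0.0456), a call lost without any 1 of 10 libraries (-0.79 without KO CCl4 5), and was at -1.06 ± 0.49 in WT (adjusted p = 0.107). Without the 10 libraries Sult1d1 was called in both, at -1.21 ± 0.19 in KO and -0.97 ± 0.20 in WT.

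Sult3a1, an amine sulfotransferase known as female-specific in mouse liver, fell to near the bottom of the scale after CCl4. It was at 2.06, 2.32 and 2.83 in KO after CCl4, against 2.29, 7.16 and 9.31 after oil, and at 1.90, 2.58 and 8.95 in WT after CCl4, against 2.18, 7.72 and 9.41 after oil. The 6 oil libraries with Y-linked expression (2.18 to 3.45) and the library labelled KO oil 10 (2.29) lay at the CCl4 level, the other 11 oil libraries lay between 6.55 and 9.41, and the library labelled WT CCl4 1 read 8.95. Sult3a1 fell by 3.72 ± 1.08 in KO (adjusted p = 0.01) and 3.05 ± 1.14 in WT (adjusted p = 0.0467), the WT call being lost without any 1 of 22 libraries (-3.77 to -2.60 over all such fits). Without the 10 libraries the differences were -5.97 ± 0.33 in KO (adjusted p = 4.5e-14) and -6.03 ± 0.36 in WT (adjusted p = 4.5e-13), over 1.5 times as large as with all libraries in both genotypes. Its close relative Sult3a2 fell by 2.48 ± 0.92 in KO (adjusted p = 0.0474, lost without any 1 of 22 libraries) and was at -1.84 ± 0.98 in WT (adjusted p = 0.165). Without the 10 libraries it was at -3.94 ± 0.70 in KO and -3.96 ± 0.76 in WT, called in both.

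Sult1a1, Sult2a2 and Sult1e1 were among the sulfotransferases called in neither genotype with all libraries. Sult1a1, the main phenol sulfotransferase, was at 8.34, 9.13 and 9.39 in KO after CCl4, against 9.28, 9.70 and 9.94 after oil, and at 7.07, 9.35 and 9.56 in WT after CCl4, against 8.88, 9.62 and 9.93 after oil. Its differences, -0.51 ± 0.22 in KO and -0.47 ± 0.23 in WT with all libraries, were called without the 10, at -0.61 ± 0.11 and -0.59 ± 0.12. Sult2a2 was at 2.93, 5.15 and 6.15 in KO after CCl4, against 3.05, 4.04 and 9.04 after oil, and at 3.34, 6.06 and 7.77 in WT after CCl4, against 2.39, 6.95 and 8.88 after oil. The oil groups spanned more of the scale than the CCl4 groups did, and the differences with all libraries were -0.22 ± 0.87 in KO and 0.28 ± 0.92 in WT. For Sult2a2 the 6 oil libraries with Y-linked expression lay at 2.39 to 3.63, and the other 12 at 3.43 to 9.04 (median 7.42). Its differences with all libraries thus mix 2 unlike sets of oil libraries. Sult1e1, the estrogen sulfotransferase, was at 2.95, 3.80 and 6.25 in KO after CCl4, against 3.24, 3.66 and 5.94 after oil, and at 2.73, 4.02 and 5.87 in WT after CCl4, against 3.02, 3.57 and 3.91 after oil. A single library in each of KO CCl4 and KO oil made its high end, and the differences were 0.24 ± 0.35 in KO and 0.64 ± 0.37 in WT, neither called. Sult2a1, which sulfates dehydroepiandrosterone, was at -0.99 ± 0.71 in KO and -0.78 ± 0.75 in WT with all libraries and at -1.94 ± 0.67 in KO (adjusted p = 0.0306) and -1.90 ± 0.73 in WT (adjusted p = 0.0563) without the 10. Sult1c1, Sult2a3, Sult2a4, Sult2a5, Sult2a6, Sult2b1, Sult4a1, Sult6b1 and Sult6b2 all averaged under 5 and were called in neither genotype, with differences of -0.44 to 0.05 in KO and -0.24 to 0.34 in WT.

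The oil libraries with Y-linked expression differed from the other oil libraries in several members beyond Gstp1. Ugt2b1 lay at 11.23 to 11.54 in those 6 and at 8.80 to 11.08 in the other 12, and Ugt2b38 at 4.83 to 6.55 in the 6 and 1.98 to 3.86 in the 12. Ugt1a7c, in contrast, lay at 3.98 to 5.77 in the 6 and at 6.36 to 7.71 in the 12. These 4 members were the ones whose ranges did not overlap, 3 above and 1 below, where 0.428% of all genes lay wholly above and 0.242% wholly below, and the other 59 overlapped. The median of the 6 minus that of the 12 was -6.00 for Sult3a1, -4.75 for Sult3a2, -4.28 for Sult2a2 and -2.51 for Sult2a1. These are descriptions of libraries grouped by their own Y-linked signal, with no test. Since all 6 are oil libraries, 3 of 10 in KO and 3 of 8 in WT, they enter each CCl4 comparison on the oil side.

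**Figure D3:**
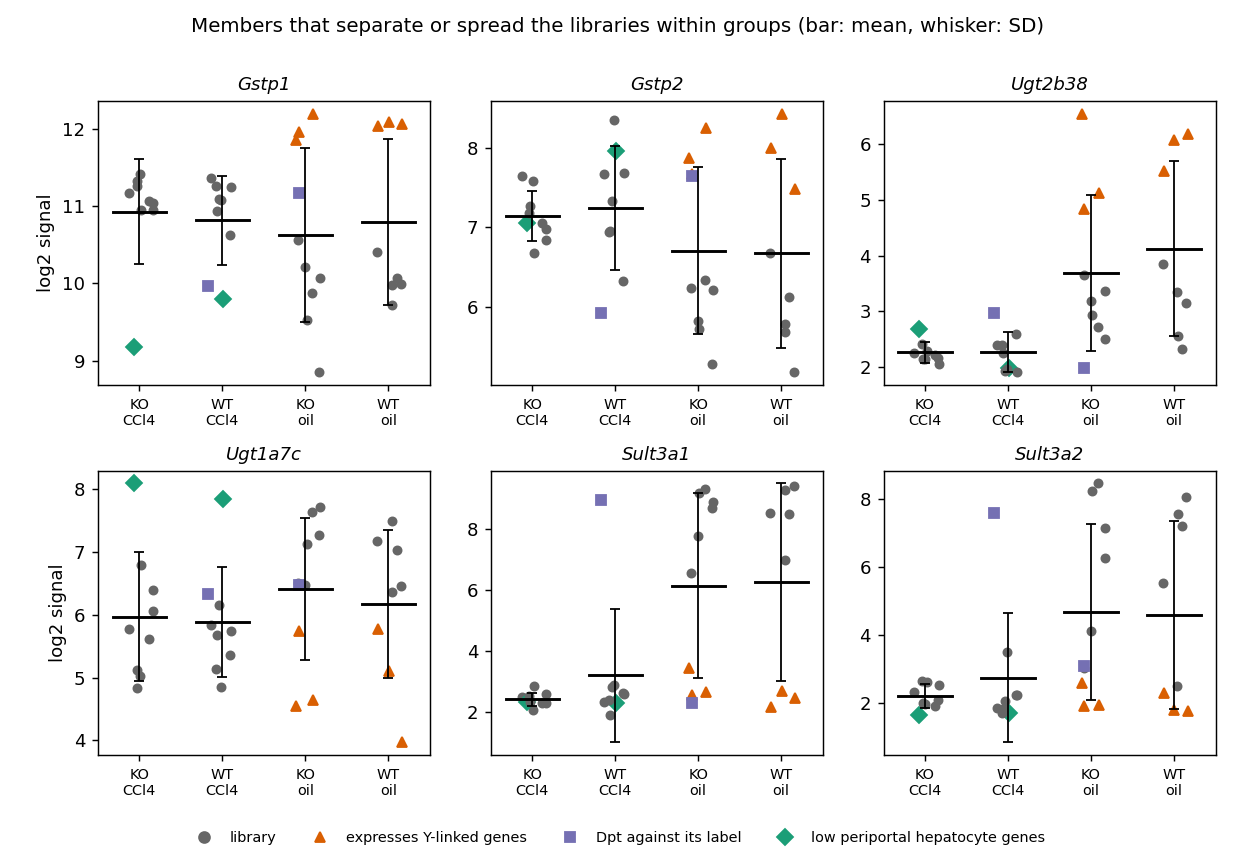
Log2 signal of 6 members in every library, by group, with bars for the mean, whiskers for the SD and triangles for the 6 oil libraries that express Y-linked genes. The triangles lie above the other oil libraries for Gstp1 and Ugt2b38, below them for Ugt1a7c, and at the level of the CCl4 libraries for Sult3a1 and Sult3a2.

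Without the 10 libraries more members were called in both genotypes. In KO 37 fell and 3 rose, where 12% of all genes fell and 15% rose, and in WT 33 fell and 3 rose, where 10.7% of all genes fell and 13.4% rose. In each genotype 14 members gained a call, 7 of them UGTs, and 1 (Ugt1a6a) lost it. Gains and losses over all genes were not counted, so these gains are not shown to be particular to the members. Ugt1a7c was at -0.44 in KO and -0.29 in WT with all libraries, and at -1.42 ± 0.27 (adjusted p = 0.000169) and -1.36 ± 0.30 (adjusted p = 0.000907) without the 10. Calls gained in both genotypes were those of Gstp1, Gstp2, Ugt1a1, Ugt1a2, Ugt1a7c, Ugt1a9, Ugt2b37 and Sult1a1. In KO alone Gsto1, Gstt2, Gstt4, Ugt2b34, Ugt2b35 and Sult2a1 gained a call, and in WT alone Gstm6, Gstm7, Ugt2b36, Ugt3a2, Sult1d1 and Sult3a2. The sign of the difference changed for 3 members in KO and 7 in WT, all uncalled with all libraries. Over the 21 members that fell in both genotypes, the library labelled KO oil 10 lay nearer the CCl4 than the oil median of its genotype in 21 of 21, and the library labelled WT CCl4 1 in 2 of 21. The other libraries lay nearer the CCl4 median in 15 to 21 members in KO CCl4, 18 to 21 in WT CCl4 and 0 to 7 in both oil groups. The 21 members were picked by calls from these same libraries, which also enter the medians. The counts of the other libraries follow in large part from that choice. They are a description and no separate evidence on the labels.

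**Figure D4:**
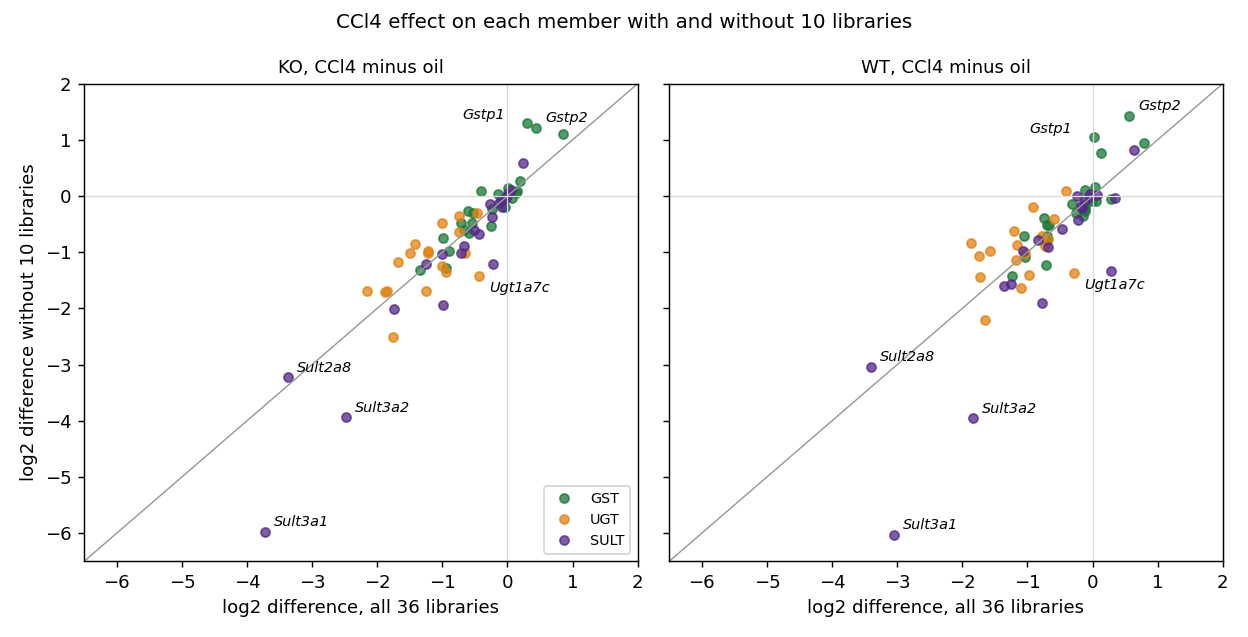
Log2 difference, CCl4 minus oil, of each of the 63 members with all 36 libraries (horizontal axis) and without the 10 libraries that stand apart (vertical axis), in KO and WT, with a line where both are equal. Sult3a1 and Sult3a2 lie far below the line, and Gstp1 and Gstp2 lie above it.

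No member was called between the genotypes with all libraries. In KO against WT livers after CCl4 (9 libraries each) limma called 0 of 63 members, where 0.0518% of all genes were called, and 1 member had an unadjusted p under 0.05 against 8.43% of all genes. That member was Gsta4, at 6.31, 6.98 and 7.34 in KO and 6.80, 7.45 and 8.81 in WT after CCl4, a difference of -0.64 ± 0.19 (adjusted p = 0.251). The groups overlapped, and without the 10 libraries the difference was -0.40 (adjusted p = 0.413). After oil (10 KO against 8 WT libraries) 0 members were called, where 0.0346% of all genes were, and 0 had an unadjusted p under 0.05 against 3.79% of all genes. The lowest unadjusted p after oil was that of Sult5a1, at -0.50 ± 0.25 (adjusted p = 0.9998). A p that misses the threshold does not show that the genotypes had equal levels. When the 7 libraries with markers of other tissues were left out, Ugt2b36 was called lower in KO after CCl4, at -0.53 (adjusted p = 0.0499; 0.445% of all genes), with 8 KO and 4 WT libraries, among them the library labelled WT CCl4 1, in which Dpt goes against the label. Ugt2b36 was not called when the libraries with doubtful labels or content were left out too, at -0.50 (adjusted p = 0.378). Without the 7, 12 members had an unadjusted p under 0.05, where 10.4% of all genes did, and 8 of the 12 were UGTs. The median difference over all 18 UGTs was -0.39, and -0.24 when the libraries with doubtful labels or content were left out too. With the 10 libraries left out instead, 6 members had an unadjusted p under 0.05, where 9.57% of all genes did. Markers of other tissues differed in the same comparison with all libraries. An unadjusted p under 0.05 was found for 9 of 10 pancreas markers (median -1.59), 7 of 8 muscle markers (median -1.55) and 6 of 8 macrophage markers (median 0.70, with 1 called). Their part in the result was not tested. Mgst3, the member nearest to Dpt on chromosome 1 (26 protein-coding genes apart in GRCm38.p6), differed by -0.18 ± 0.15 after CCl4 and -0.04 ± 0.16 after oil, neither called.

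The CCl4 response was also compared between genotypes. The interaction called 0 of 63 members, where 0 of all genes were called, and 1 member had an unadjusted p under 0.05 against 5.86% of all genes, again Gsta4. The differences between responses (KO minus WT) ran from -0.68 to 0.64 with a median of -0.05 and a median standard error of 0.36. Without the 7 libraries with markers of other tissues 8 members had an unadjusted p under 0.05, where 9.93% of all genes did, and 7 of the 8 were UGTs, with 15 of 18 UGTs negative and a UGT median of -0.45. Without the 10 it was 6 members, where 9.92% of all genes did. By family the medians with all libraries were 0.07 for GSTs, -0.10 for UGTs and -0.08 for SULTs. The 2 responses had the same sign in 53 of the 63 members, and the share over all genes was not counted. The widest error was that of Sult3a1, at -0.68 ± 1.56. With a median standard error of 0.36 over the members, unequal responses of many members, and not of Sult3a1 alone, could have gone unseen with this number of arrays.

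Genes that supply or surround conjugation moved in both directions. With all libraries, 9.89% of all genes fell and 13.4% rose in KO, and 11.3% fell and 13.2% rose in WT. Without the 10 libraries it was 12% and 15% in KO, and 10.7% and 13.4% in WT. These shares stand beside the counts of the lists and markers below. The lists are short, and a count near its share says nothing particular to a list. Among 12 genes of glutathione supply, KO had 1 rise and 3 falls and WT 1 of each. The riser was Slc7a11, the cystine importer, by 1.39 ± 0.26 in KO and 1.77 ± 0.28 in WT (adjusted p = 0.000149 and 2.91e-05), and Gclm, Chac2 and Oplah fell in KO, by 0.61, 0.93 and 0.65. Oplah, which recycles oxoproline, was also the 1 that fell in WT. Of 6 genes around UDP-glucuronate, Gusb, the lysosomal enzyme that removes glucuronic acid, rose by 0.87 ± 0.15 in KO and 0.64 ± 0.16 in WT, and Ugp2 and Slc35a3 fell in KO, by 0.56 and 0.34. Ugdh, which makes UDP-glucuronate, was at -0.34 and 0.01. Among 6 genes of PAPS supply, Papss1 rose by 0.95 ± 0.11 in KO and 0.95 ± 0.12 in WT (adjusted p = 2.19e-07 and 1.43e-06), while Papss2, the main PAPS synthase of liver, fell by 1.10 ± 0.35 in KO and was at -0.76 ± 0.37 in WT. In WT Bpnt2 rose and Slc35b2 fell.

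On a list of 11 enzymes of other families, conjugating enzymes and the hydrolase Ephx1, 5 fell in KO and 6 in WT, with none up. The N-methyltransferases Inmt, Gnmt and Hnmt fell by 1.78, 1.64 and 0.87 in KO and by 1.61, 1.90 and 0.74 in WT, and the acetyltransferase Nat2 by 0.64 and 0.55. Nat1 was the other called in KO, and Nat8 and Nnmt the others in WT. With the 10 libraries left out 6 fell in KO and 4 in WT, and 1, the epoxide hydrolase Ephx1, rose in both, at 0.43 in KO and 0.42 in WT. Among 10 genes of conjugate export, KO had 3 rises and 2 falls and WT 4 rises and 2 falls. The exporter Abcc4 rose by 1.55 ± 0.23 in KO and 1.73 ± 0.24 in WT (adjusted p = 4.63e-06 and 6.16e-06), with Abcc1 at 0.87 and 0.82 and Abcc5 at 1.08 and 0.88, while Abcc6 and Rdx fell in both and Abcb1a rose in WT. The canalicular exporter Abcc2 was at -0.85 ± 0.48 in KO and -0.61 ± 0.51 in WT, uncalled. Among 21 regulators, 8 fell in KO and 5 in WT, and 1 rose. Nfe2l2, which encodes NRF2, rose by 0.30 ± 0.09 in KO and 0.51 ± 0.09 in WT. Cebpa, a hepatocyte factor, fell by 0.87 ± 0.23 in KO and 1.77 ± 0.25 in WT, and Stat5b, which carries the growth hormone signal, by 0.42 and 0.47. Rxra and Cux2 also fell in both, with Ppara, Foxa1, Foxa2 and Mafg in KO and Nr0b2 in WT. Without the 10 libraries 13 regulators fell in KO and 9 in WT. The receptors Nr1i2 and Nr1i3, which induce many UGTs and SULTs, were at -1.04 and -0.99 in KO and -0.83 and -0.96 in WT, uncalled.

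Markers of cell types moved with the same comparisons. Of 8 hepatocyte markers limma called 0 in KO, where 2 had an unadjusted p under 0.05, and 3 fell in WT (medians -0.54 and -0.65). With the 10 libraries left out 2 fell in KO and 5 in WT (medians -0.22 and -0.40). Of 11 pericentral markers 8 fell in KO and 9 in WT (medians -1.51 and -1.55), and of 10 periportal markers 5 fell in each (medians -0.93 and -0.92). Macrophage markers rose in 8 of 8 in KO and 7 of 8 in WT, stellate cell markers in 7 of 8 in each and cholangiocyte markers in 4 of 7 in each. The pericentral score ran from 6.20 to 7.50 in KO CCl4 and 6.03 to 8.62 in WT CCl4, against 6.72 to 8.79 in KO oil and 8.19 to 8.63 in WT oil. The macrophage score ran from 7.46 to 9.43 in KO CCl4 and 6.65 to 8.43 in WT CCl4, against 5.50 to 8.53 in KO oil and 5.41 to 5.88 in WT oil. The stellate cell score ran from 7.39 to 8.02 in KO CCl4 and 6.27 to 8.06 in WT CCl4, against 5.05 to 8.07 in KO oil and 5.20 to 5.51 in WT oil. Of 10 pancreas markers 1 rose in WT, of 8 muscle markers 2 rose in WT, and of 8 adipocyte markers 1 rose in each genotype. Over all genes 13.2% rose in WT and 13.4% in KO. In WT 7 of 10 pancreas markers (median 1.54) and 8 of 8 muscle markers (median 1.39) had an unadjusted limma p under 0.05, where 37.5% of all genes did. In KO no pancreas or muscle marker did, where 34.9% of all genes did. The part of these changes in the members' results was not tested.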

How the data were processed

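Liver RNA of 36 libraries was read on Affymetrix MoGene 2.0 ST arrays, 1 array each. The deposited values are log2 signals per probe set made by the authors with RMA, per the submitters' processing notes. Which RMA version, probe grouping and build they used is not given in the sources used here. A further table of 36 columns was not used, because its column names match no sample. Of 269479 probe sets, 233753 named 1 gene and were averaged into 23152 genes. The members took 413 of them, 1 to 14 a gene. The 37 probe sets that name several members or a member and another gene were kept apart. Differences were tested with limma 3.58.1 (R 4.3.3) with 1 mean per group, empirical Bayes variances and Benjamini-Hochberg adjustment over all genes, and called at an adjusted p under 0.05. No gene was filtered. The procedure was tested on simulated data. Values were given in full for up to 6 members a family with the smallest adjusted p after CCl4 and up to 3 with the highest mean signal among those not called; members whose call changed without the 10 libraries, the member near Dpt and the called genes of the lists were also named. The members and lists were chosen with earlier results of these data known. Alternatives were a median over probe sets, centred arrays, a filter on mean signal, array weights, a replicate block, the shared probe sets added, and libraries left out. The number of arrays limits the precision. Promoters come from RefSeq (GRCm38.p6). A further motif that was searched is not reported here.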

Additional observations from a re-analysis of the deposited data

Results flagged for a closer look

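Over 108 sets of values (27 members in 4 groups), 33 had a lowest or highest library far from the next. For 1 set alone chance gives about 1 in 20. The sets share the same libraries and are not independent, so the count of 33 cannot be judged by that rate.

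Of these, 14 were KO CCl4 5 as the lowest of its group. Its log2 signals were 6.51 for Gstk1, 6.82 for Gsta3, 9.18 for Gstp1, 7.68 for Gstm1 and 6.85 for Gsto1. Among UGTs they were 2.81 for Ugt3a1, 3.75 for Ugt2a3, 4.48 for Ugt2b1, 5.84 for Ugt2b34, 3.22 for Ugt1a9 and 5.12 for Ugt1a1. Among SULTs they were 2.49 for Sult1b1, 8.34 for Sult1a1 and 2.93 for Sult2a2. The widest gap was in Ugt2b1, where the next KO CCl4 library read 8.76.

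WT CCl4 3 was the lowest of its group in 9 sets, with 5.75 for Gsta3, 7.87 for Gstm1, 3.46 for Ugt3a1, 3.64 for Ugt2a3, 4.83 for Ugt2b1, 6.12 for Ugt2b34, 4.37 for Ugt1a9, 5.58 for Ugt1a1 and 7.07 for Sult1a1. KO CCl4 5 and WT CCl4 3 were low in periportal hepatocyte genes and had the lowest hepatocyte scores of their groups (7.97 and 8.16). They also carried adipocyte markers (score 8.03, KO CCl4 5) and skeletal muscle markers (score 10.00, WT CCl4 3), whose part in these values was not tested.

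The library labelled KO oil 10 stood out in 8 sets. It was the lowest of its group for Gstt1 (6.99), Ugt3a1 (4.99), Ugt2a3 (7.15), Ugt2b1 (8.80), Ugt2b34 (9.63), Ugt1a9 (7.28) and Sult2a8 (4.44), and the highest for Sult1e1 (5.94). The library labelled WT CCl4 1 was the highest of its group for Sult3a1, at 8.95, where the next read 2.89. KO CCl4 3 was the highest of its group for Sult1e1, at 6.25, where the next read 4.58.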

How the results depend on the processing

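Over 11 other settings and 36 fits that each left out 1 library, no called difference of a member changed direction. Leaving out 1 library gave 20 to 31 members down and 1 up in KO, and 15 to 31 down and 1 up in WT, with 0 called in KO against WT after oil, in KO against WT after CCl4 and in the interaction. The other settings gave 19 to 37 down in KO and 17 to 33 in WT. The highest count down came without all 10 libraries, at 37 in KO and 33 in WT, and the count without the Y-expressing libraries was 19 in KO and 18 in WT. Members up in KO numbered 3 without the Y-expressing libraries, 3 without the 10 and 3 without those and the libraries with other tissue markers. Members up in WT numbered 2 without the Y-expressing libraries, 2 without those with other tissue markers, 3 without the 10 and 4 without both. Leaving out both sets, and adding probe sets that name several members (26 down in KO, 22 in WT), were chosen after seeing the data. KO against WT after CCl4 gave 1 call without the libraries with other tissue markers. The cause was not tested, beyond that the settings that leave libraries out use fewer of them.

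Samples of different groups share replicate numbers, and the labels do not say what a number means. Of 51 pairs with the same number, 17 had a correlation of deviations over 0.1 (median 0.03, against 0.02 in the other pairs), and 8 of 36 libraries correlated best with their own number. The numbers were therefore not taken to pair the samples. With the replicate number as a block, 33 members fell and 1 rose in KO, 25 fell and 1 rose in WT, and 0 were called in KO against WT after oil, 0 after CCl4 and 0 in the interaction.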
